A study of Mus musculus with 14 samples.

Results

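The genes described here are 10 genes of cholesterol sensing, export and intracellular handling, chosen by gene symbol from the 55414 rows of the count table: Nr1h3, Nr1h2, Abca1, Abcg1, Apoe, Mylip, Lpcat3, Npc1, Npc2 and Soat1. All 10 were found, and all 10 passed the filter on low counts, which left 12851 genes in the test. In the annotation of GRCm38, Nr1h3 spans chr2:91184061-91202834, Nr1h2 chr7:44549616-44553951 and Abca1 chr4:53030787-53159895 on the minus strand, Abcg1 chr17:31057675-31117988 on the plus strand and Apoe chr7:19696109-19699188 on the minus strand. The genes were measured in primary bone marrow-derived macrophages (pBMDMs) of wildtype C57BL/6N mice, which were differentiated with M-CSF and then kept for 24 h in one of 5 media. The ctrl group received filtered supernatant of untreated Pfa1 cells, a line of mouse embryonic fibroblasts (MEFs) where 4-hydroxytamoxifen (4OHT, "Tam" in the sample labels) deletes GPX4, the enzyme that holds lipid peroxidation in check, so that the cells die by ferroptosis. The 4OHT group received supernatant of Pfa1 MEFs treated with 1 μM 4OHT, the 4OHT+Fer1 group supernatant of MEFs that also received 1 μM Ferrostatin-1, an inhibitor of ferroptosis, and the Fer1 group supernatant of MEFs given Ferrostatin-1 without 4OHT. The medium group received fresh medium, never in contact with MEFs. Each supernatant group had 3 replicates and the medium group 2, which makes 14 samples. The macrophages themselves carried no deletion, every supernatant came from the one Pfa1 line, and both the 4OHT and the 4OHT+Fer1 supernatants came from MEFs given 4OHT.

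LXRα (Nr1h3) and LXRβ (Nr1h2) are nuclear receptors that bind oxysterols, pair with the retinoid X receptor and turn on genes when a cell holds more cholesterol than it needs. In macrophages their best known targets are the ABC transporters that load cholesterol onto lipoproteins, together with apolipoprotein E, a ubiquitin ligase that removes the LDL receptor and an enzyme that remodels membrane phospholipids. Cholesterol taken up with lipoproteins or dead cells leaves the lysosome through the NPC proteins, and what is not exported is stored as esters. SREBP2, a transcription factor of cholesterol synthesis and uptake, is switched off by the same excess and so forms the other arm of sterol control.

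The promoters of 2 of these genes are shown because Nr1h3 is the gene of the 10 that changed between 4OHT and ctrl and Abca1 is the classical LXR target whose transcript passed in no comparison. They run from 250 bases before to 50 bases after a start site and are printed 5′ to 3′ on the strand of the gene, from RefSeq on GRCm38.p6. The Nr1h3 promoter lies on the minus strand at chr2:91195067-91195366 and the Abca1 promoter on the minus strand at chr4:53159846-53160145. Nr1h3 has 2 promoters in the RefSeq table, of which one is shown. Capitals in the Abca1 promoter mark a match, on the reverse strand, to a relaxed form of the DR4 element, the paired half-site that LXR with its partner binds.
Nr1h3: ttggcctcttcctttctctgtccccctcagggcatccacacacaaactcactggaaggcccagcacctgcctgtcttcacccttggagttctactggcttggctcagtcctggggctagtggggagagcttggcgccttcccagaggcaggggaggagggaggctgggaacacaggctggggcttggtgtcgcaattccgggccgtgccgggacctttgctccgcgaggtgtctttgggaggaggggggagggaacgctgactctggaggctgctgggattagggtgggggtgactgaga
Abca1: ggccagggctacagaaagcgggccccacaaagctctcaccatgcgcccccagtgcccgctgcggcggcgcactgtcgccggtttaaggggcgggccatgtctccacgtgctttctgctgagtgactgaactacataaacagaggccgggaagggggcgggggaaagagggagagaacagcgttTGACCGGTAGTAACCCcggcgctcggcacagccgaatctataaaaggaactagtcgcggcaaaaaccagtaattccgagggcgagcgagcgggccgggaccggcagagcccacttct

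The relaxed element searched on both strands was NGGTNA, 4 free bases and NGGTCA, and its match in Abca1 reads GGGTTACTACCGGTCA and begins 67 bases before the start site. These letters were chosen after the Abca1 promoter had been seen, so the match itself is no result. Of 32851 mouse promoters of 300 bases, 0.207% hold the relaxed element and 0.0152% hold the strict form, AGGTCA on either side of 4 free bases, whose matches all match the relaxed form too. Promoter sequences were found for 8 of the 10 genes, 11 promoters in all, and the Abca1 match was the one match among them to the relaxed, the strict or the sterol element TCACNCCAC of SREBP, which 1.24% of all promoters hold. Abcg1 and Npc1 had no entry.

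Expression is given as CPM, the count of a gene scaled to a library of fixed size, after correction by TMM factors. The total count per sample lay between 7823051 and 11052352, and the lowest count of any of the 10 genes in any sample was 33, for Nr1h3, against a floor of 3 counts. A gene passed when its p in the quasi-likelihood F test of edgeR, adjusted after Benjamini and Hochberg over all tested genes, was under 0.05. Changes are log2 fold changes with their standard error (SE) and n is the number of samples. All 8 macrophage markers examined were detected in all 14 samples. Ly6g of neutrophils and Cd3e and Cd3g of T cells were at 0 in all 14, but S100a8 and S100a9 of neutrophils were found in every sample, at 2.21 to 21.0 and 0.633 to 24.6 CPM. Camp of neutrophils and the B cell genes Ms4a1 and Cd79a were at 0 in 4, 9 and 13 samples and at most 1.65, 0.531 and 0.0992 CPM in the others. The fibroblast collagens Col1a1, Col1a2 and Col3a1 were found in every sample at 5.08 to 41.6, 7.75 to 67.4 and 0.319 to 6.72 CPM. The other fibroblast markers Pdgfrb, Pdgfra, Dcn, Lum and Thy1 were at 0 in 1, 5, 6, 10 and 13 samples. Their highest levels were 3.27, 0.442, 1.01, 0.298 and 0.127 CPM. In a bulk sample, fewer cells of a type and less RNA per cell cannot be told apart.

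Nr1h3 was the one gene of the 10 that changed in 4OHT against ctrl, the comparison of ferroptotic with live-cell supernatant. It was also the one that differed between ctrl and fresh medium. Its level was highest in medium, intermediate in 4OHT and lowest in ctrl, while its paralog Nr1h2 and the transporters Abca1 and Abcg1 passed in no comparison.

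Nr1h3 encodes LXRα, the LXR of macrophages, liver and fat. Replicates 1 to 3 stood at 4.46, 3.32 and 5.74 CPM in ctrl and at 7.16, 7.98 and 24.4 CPM in 4OHT. They stood at 4.39, 6.37 and 11.3 CPM in 4OHT+Fer1 and at 4.76, 4.17 and 8.81 CPM in Fer1. Both medium samples, at 21.7 and 19.5 CPM, were high. All 4OHT samples lay above all ctrl samples, 4OHT replicate 3 was far above the other two, and replicate 3 was the highest of its group in each of the 4 supernatant groups. The group means were 4.51 ± 1.21 CPM in ctrl, 13.2 ± 9.74 in 4OHT, 7.34 ± 3.54 in 4OHT+Fer1 and 5.91 ± 2.53 in Fer1 (SD, n = 3), and 20.6 ± 1.59 in medium (SD, n = 2). In the order medium, 4OHT, 4OHT+Fer1, Fer1 and ctrl, the sample ranges of each neighbouring pair overlapped.

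Between 4OHT and ctrl, Nr1h3 rose 2.59-fold (log2 fold change 1.37, SE 0.27, 95% confidence interval 0.79 to 1.95, adjusted p = 0.0270 by edgeR). It was higher in 3 of 3 replicates, with differences of 0.66, 1.21 and 2.05 in log2 CPM. Of all tested genes, 1.49% passed in this comparison and 0.482% passed as higher, beside 1 of the 10 described here. With the study's further rule of an absolute log2 fold change above 1 the call was kept, and 1.11% of all genes passed. Without the block for the replicate number the change was 1.54 (adjusted p = 0.363 by edgeR), and with only ctrl and 4OHT in the fit it was 1.35 (adjusted p = 0.370 by edgeR). Over all alternatives outside the leave-one-out fits the adjusted p ran from 0.000482, with DESeq2, to 0.370. Across 17 fits that left out a library or a replicate number the change stayed between 0.95 and 1.71 and the adjusted p lay between 0.0200 and 0.492. It passed in 4 of them, namely without any one of the 3 libraries of 4OHT+Fer1 or without Fer1 replicate 2, and did not pass in the other 13, which left out any one library of ctrl, 4OHT or medium, Fer1 replicate 1 or 3, or all samples of a replicate number. Without 4OHT replicate 3 the log2 fold change was 1.07 (adjusted p = 0.0651 by edgeR). For Nr1h3 alone, an exact two-sided permutation test of 4OHT against ctrl gave p = 0.1, which is the smallest that 3 against 3 samples allow.

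The summed level of the 8 macrophage markers, most of it from Lyz2, was 28133 to 44237 CPM in 4OHT and 19287 to 28097 CPM in ctrl. As single genes they did not move one way, with 4 log2 fold changes above 0, 4 below 0 and a median of -0.04. Of the 8, 0 passed by edgeR in 4OHT against ctrl and 3 had an unadjusted p under 0.05, beside 10.8% of all genes. These were Adgre1, Csf1r and Lyz2, all above 0. The part of this summed level in the Nr1h3 result was not tested. The exons of Nr1h3 overlap those of Gm13783 on the same strand, away from the 3′ end of the gene.

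**Figure D1:**
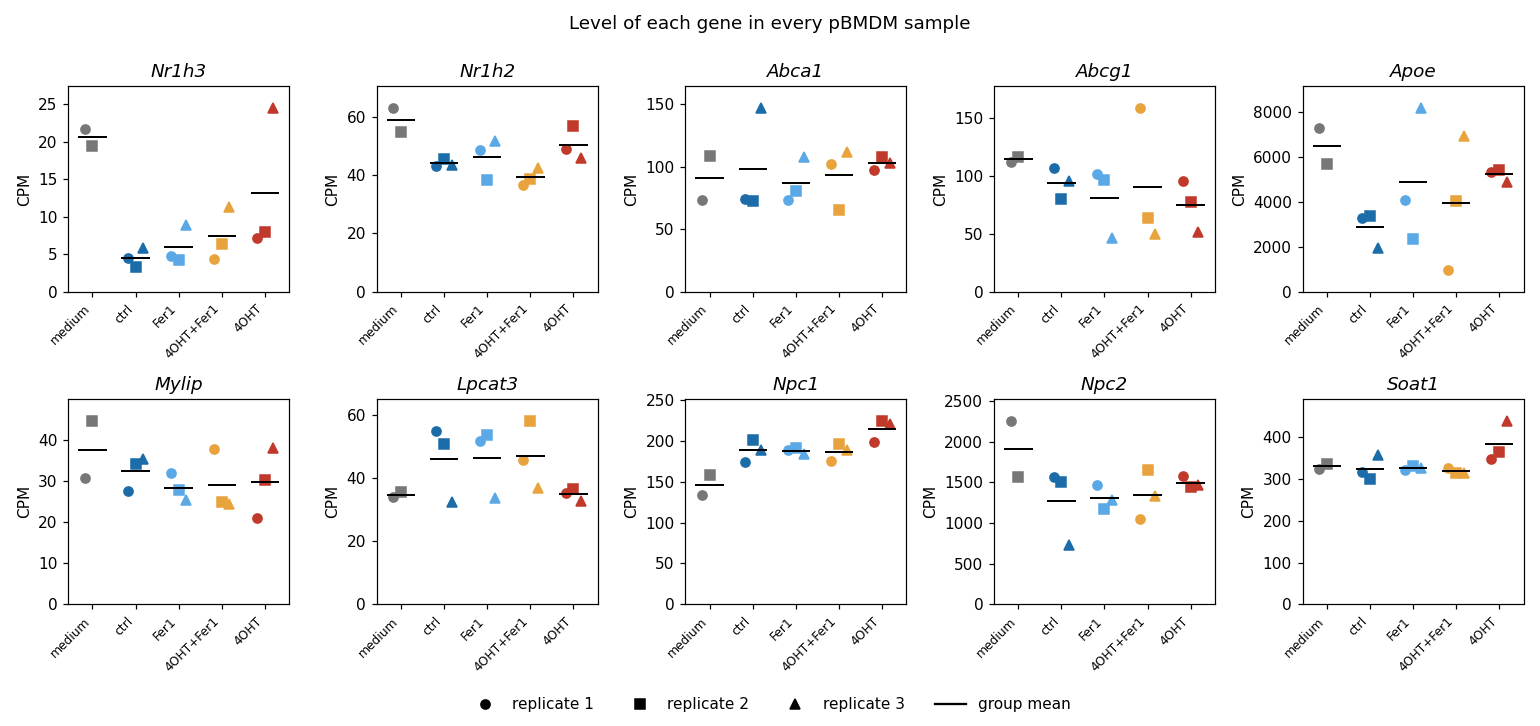
Level of each of the 10 genes in every sample, in CPM, by group. Points are single samples and the horizontal bars are group means. Nr1h3 is at 19.5 and 21.7 CPM in the medium samples and at 3.32 to 5.74 CPM in ctrl, whereas the Abca1 samples of all groups overlap.

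With Ferrostatin-1 in the MEF culture, the mean of Nr1h3 in 4OHT+Fer1 lay between those of ctrl and 4OHT. The difference of 4OHT+Fer1 from ctrl within replicate 1 was -0.02 in log2 CPM. The log2 fold change of 4OHT against 4OHT+Fer1 was 0.74 (SE 0.26, adjusted p = 0.244 by edgeR) and that of 4OHT+Fer1 against ctrl 0.63 (SE 0.27, adjusted p = 0.948 by edgeR), and neither passed. Fer1 against ctrl was 0.34 (SE 0.27) and 4OHT+Fer1 against Fer1 was 0.30 (SE 0.26), and these did not pass either. Whether the effect of 4OHT on Nr1h3 differed with Ferrostatin-1 was tested by the interaction term. It was 1.07 on the log2 scale (SE 0.37, confidence interval 0.26 to 1.88) and did not pass (unadjusted p = 0.0137, adjusted p = 0.596 by edgeR). These comparisons share samples and are not independent of each other.

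Against fresh medium, Nr1h3 was lower in ctrl by a log2 fold change of -2.58 (SE 0.29, confidence interval -3.21 to -1.95, adjusted p = 0.000182 by edgeR), which is 5.99-fold lower. It was lower in both replicates that could be paired, by -2.23 and -2.48 in log2 CPM, which is smaller in size than the fitted change. Replicate 3 of ctrl has no medium partner. Of all tested genes 10.9% passed in this comparison and 5.58% passed as lower, beside 1 of the 10 described here. Nr1h3 passed under every alternative run except without all samples of replicate 2, where the change was -2.62. In the other fits the adjusted p was at most 0.0314. With the fold rule it was kept as well, beside 7.79% of all genes.

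In 4OHT against medium, Nr1h3 was also lower, by a log2 fold change of -1.21 (SE 0.28, adjusted p = 0.0321 by edgeR), with 4.26% of all genes passing and 2.34% passing as lower, and 3.07% passing with the fold rule, under which Nr1h3 was kept. The ranges of the samples overlapped, because 4OHT replicate 3 at 24.4 CPM stood above both medium samples and has no medium partner. With no block for the replicate number it was -0.65 (adjusted p = 0.798 by edgeR). The change passed in 6 of the 17 leave-one-out fits, in which it ranged from -1.45 to -0.99, with adjusted p between 0.00954 and 0.570. It passed without 4OHT replicate 3, 4OHT+Fer1 replicate 1 or 2, ctrl replicate 1 or 3, or all of replicate 3, and did not pass without any other library or replicate number.

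The medium libraries differed in marker genes too. Summed neutrophil markers were 34.3 to 47.1 CPM in medium and 2.87 to 15.1 CPM in ctrl. Fibroblast markers summed to 32.8 to 100.2 CPM in medium and 18.6 to 50.04 CPM in ctrl, and Col1a1 and Col1a2 were lower in ctrl than in medium. Mrc1 was higher, and Adgre1 and Fcgr1 lower, in ctrl than in medium. The part of these differences in the Nr1h3 result was not tested.

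Nr1h2 encodes LXRβ, the LXR found in most tissues. It read 43.4, 45.7 and 43.5 CPM in ctrl, 49.0, 56.9 and 45.9 CPM in 4OHT and 36.7, 38.9 and 42.7 CPM in 4OHT+Fer1. In Fer1 it read 48.8, 38.4 and 51.8 CPM, and in medium 63.1 and 55.0 CPM. The ctrl samples lay between all 4OHT and all 4OHT+Fer1 samples, without overlap, and the medium samples lay above all ctrl samples. The differences were small. The log2 fold change was 0.20 (SE 0.16, adjusted p = 0.754 by edgeR) in 4OHT against ctrl, 0.36 (SE 0.16, adjusted p = 0.379) in 4OHT against 4OHT+Fer1 and -0.43 (SE 0.18, adjusted p = 0.155) in ctrl against medium, and none passed.

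Of all genes, 11% had sample ranges that did not overlap between 4OHT and ctrl, against 3 of the 10 genes, Nr1h3, Nr1h2 and Apoe, all higher in 4OHT. Between 4OHT and 4OHT+Fer1 the share was 10.2%, against 4 of the 10 genes, with Nr1h2, Npc1 and Soat1 higher and Lpcat3 lower in 4OHT. Between 4OHT+Fer1 and ctrl it was 5.35%, against Nr1h2 alone, lower in 4OHT+Fer1. Between 4OHT+Fer1 and Fer1, at 6.09%, and between Fer1 and ctrl, at 3.6%, it was 0 of the 10. Between ctrl and medium 34.5% of all genes did not overlap, against 6 of the 10, with Npc1 higher and Nr1h3, Nr1h2, Abcg1, Apoe and Npc2 lower in ctrl. Between 4OHT and medium it was 28.6%, against 4 of the 10, with Npc1 and Soat1 higher and Abcg1 and Apoe lower in 4OHT.

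Abca1 moves cholesterol and phospholipid onto lipid-poor apolipoprotein A-I. It stood at 74.1, 72.5 and 147 CPM in ctrl and at 97.1, 108 and 103 CPM in 4OHT. In 4OHT+Fer1 it stood at 102, 65.1 and 112 CPM, in Fer1 at 73.4, 80.2 and 108 CPM and in medium at 73.0 and 108 CPM. The single highest sample was ctrl replicate 3, and every group overlapped every other. The difference of 4OHT from ctrl was 0.39 and 0.57 in log2 CPM in replicates 1 and 2 and -0.51 in replicate 3. The fitted log2 fold change was 0.15 (SE 0.23, confidence interval -0.35 to 0.64, adjusted p = 0.893 by edgeR), so that the interval reaches from a loss to a gain of less than 1 log2 unit. Against medium it was -0.11 in ctrl (SE 0.27, adjusted p = 0.850) and 0.03 in 4OHT (SE 0.26, adjusted p = 0.981).

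Abcg1 passes cholesterol to mature HDL particles. It read 107, 80.3 and 95.4 CPM in ctrl, 95.6, 77.7 and 51.1 CPM in 4OHT and 159, 64.0 and 49.9 CPM in 4OHT+Fer1. In Fer1 it read 101, 96.2 and 46.0 CPM and in medium 113 and 117 CPM. Replicate 3 was the lowest of its group in 4OHT, 4OHT+Fer1 and Fer1 but not in ctrl, and 4OHT+Fer1 replicate 1 was the highest sample of all. The log2 fold change of 4OHT against ctrl was -0.41 (SE 0.28, confidence interval -1.02 to 0.19, adjusted p = 0.690 by edgeR) and was negative in 3 of 3 replicates. Both medium samples lay above all ctrl and all 4OHT samples, yet the fitted change of ctrl against medium was -0.03 (SE 0.32, adjusted p = 0.966).

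Apoe, the gene of apolipoprotein E, which macrophages secrete, was the most variable of the 10, with an 8.61-fold span over the 14 samples. Replicates 1 to 3 were at 3303, 3385 and 1951 CPM in ctrl and at 5351, 5448 and 4913 CPM in 4OHT. They were at 950.3, 4038 and 6929 CPM in 4OHT+Fer1 and at 4085, 2361 and 8180 CPM in Fer1, with 7307 and 5682 CPM in medium. The 4OHT samples were close together and lay above all ctrl samples, whereas those of 4OHT+Fer1 and Fer1 spread across nearly the whole range. The log2 fold change of 4OHT against ctrl was 0.82 (SE 0.53, confidence interval -0.33 to 1.96, adjusted p = 0.673 by edgeR), with 3 of 3 replicates higher, and that of ctrl against medium was -1.29 (SE 0.58, adjusted p = 0.195). With only ctrl and medium in the fit the latter was -0.91 and passed (adjusted p = 1.08e-05 by edgeR). Over all genes 2498 passed in that fit, against 1396 with all groups in it, and ctrl replicate 3 has no medium partner there.

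**Figure D2:**
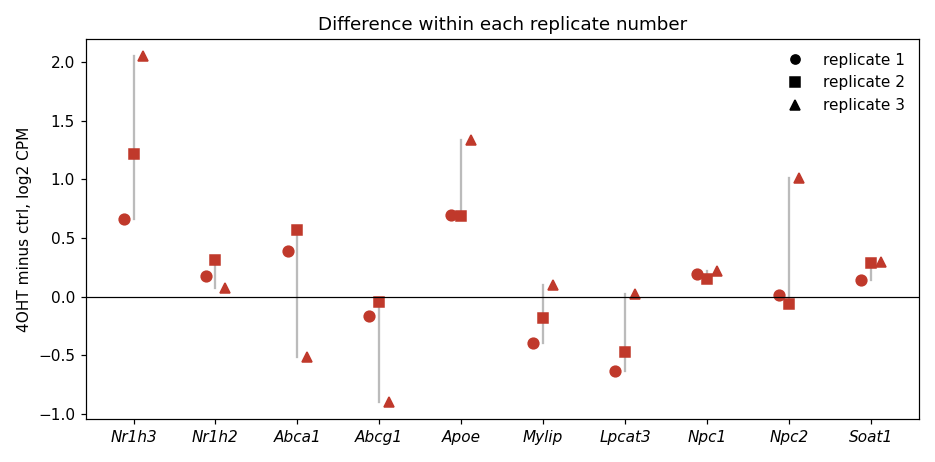
Difference of 4OHT from ctrl in log2 CPM for each of the 10 genes, with a symbol for each replicate number and a grey line over their range. Nr1h3 is above 0 in all replicates, from 0.66 to 2.05, while Abca1 is above 0 in replicates 1 and 2 and below it in replicate 3.

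Mylip encodes the ubiquitin ligase IDOL, which sends the LDL receptor to the lysosome. It read 27.6, 34.2 and 35.3 CPM in ctrl, 20.9, 30.1 and 38.0 CPM in 4OHT and 37.6, 24.9 and 24.4 CPM in 4OHT+Fer1. In Fer1 it read 31.8, 27.7 and 25.3 CPM and in medium 30.6 and 44.5 CPM. All groups overlapped, and the log2 fold change of 4OHT against ctrl was -0.13 (SE 0.25, adjusted p = 0.914 by edgeR). Against medium it was -0.37 in 4OHT (SE 0.29, adjusted p = 0.651), and it passed there with only the groups compared in the fit (-0.58, adjusted p = 0.0425). Over all genes 1498 passed in that fit, against 548 with all groups in it.

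Lpcat3 puts polyunsaturated fatty acids into membrane phospholipids. Its replicates were at 54.7, 50.7 and 32.2 CPM in ctrl, 35.2, 36.5 and 32.8 CPM in 4OHT and 45.6, 57.9 and 36.9 CPM in 4OHT+Fer1. They were at 51.6, 53.5 and 33.7 CPM in Fer1 and at 33.9 and 35.5 CPM in medium. Replicate 3 was the lowest of its group in all 4 supernatant groups, and every 4OHT sample lay below every 4OHT+Fer1 sample. Lpcat3 did not pass in 4OHT against ctrl, with a log2 fold change of -0.36 (SE 0.16, unadjusted p = 0.0400, adjusted p = 0.424 by edgeR), nor in 4OHT against 4OHT+Fer1, at -0.40 (SE 0.16, adjusted p = 0.324). Lpcat3 was 0.54 higher in ctrl than in medium on the log2 scale (SE 0.18, adjusted p = 0.0835). It passed there without scaling factors (0.66, adjusted p = 0.0346) and with only ctrl and medium in the fit (0.64, adjusted p = 0.0141). In the latter fit 2498 genes passed over all, against 1396 with all groups in it. Exons of Emg1 on the opposite strand cover the 3′ end of Lpcat3. Whether the counting used strand is not given in the sources used here, and without strand the reads of both genes cannot be told apart.

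Among the genes that handle cholesterol inside the cell, Npc1 passed in 4OHT against medium and none passed between the supernatants. Npc1, the lysosomal membrane protein that receives cholesterol from Npc2, was at 174, 201 and 189 CPM in ctrl and at 199, 224 and 220 CPM in 4OHT. It was at 175, 196 and 189 CPM in 4OHT+Fer1, 189, 191 and 183 CPM in Fer1 and 134 and 158 CPM in medium. Both medium samples lay below every supernatant sample. Npc1 was 1.46-fold higher in 4OHT than in medium (log2 fold change 0.55, SE 0.14, adjusted p = 0.0411 by edgeR), where 1.92% of all genes passed as higher. The change stayed between 0.50 and 0.62 in 17 leave-one-out fits and passed in 3 of them, namely without 4OHT replicate 3, 4OHT+Fer1 replicate 1 or ctrl replicate 3, with adjusted p between 0.0339 and 0.662. It did not pass without the replicate block (adjusted p = 0.132) or without a filter on low counts (adjusted p = 0.116). Relative to medium, Npc1 in ctrl was 0.36 higher on the log2 scale and did not pass (SE 0.13, adjusted p = 0.117 by edgeR), although it did with DESeq2 (adjusted p = 0.0345) and without scaling factors (adjusted p = 0.0452). In 4OHT against ctrl it was 0.19 (SE 0.12, adjusted p = 0.648 by edgeR). Exons of Rmc1 and Gm15956 on the opposite strand overlap those of Npc1.

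Npc2, the soluble lysosomal protein that hands cholesterol to Npc1, stood at 1565, 1509 and 729 CPM in ctrl and at 1584, 1442 and 1468 CPM in 4OHT. It stood at 1053, 1654 and 1340 CPM in 4OHT+Fer1, 1467, 1170 and 1279 CPM in Fer1 and 2254 and 1573 CPM in medium. The lowest sample was ctrl replicate 3, and otherwise the supernatant groups overlapped. Npc2 had a log2 fold change in 4OHT against ctrl of 0.28 (SE 0.25, adjusted p = 0.803 by edgeR), and the difference within replicate 3 was higher than in the other replicates.

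Soat1 esterifies cholesterol for storage in droplets. It was at 316, 300 and 357 CPM in ctrl, 349, 366 and 438 CPM in 4OHT and 327, 313 and 315 CPM in 4OHT+Fer1, with 321, 332 and 325 CPM in Fer1 and 324 and 336 CPM in medium. Soat1 varied least of the 10, 1.46-fold over all samples, and its 4OHT samples lay above all samples of 4OHT+Fer1, Fer1 and medium. Its log2 fold change was 0.24 in 4OHT against ctrl (SE 0.13, adjusted p = 0.540 by edgeR) and 0.26 in 4OHT against 4OHT+Fer1 (SE 0.13, adjusted p = 0.442), and neither passed.

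**Figure D3:**
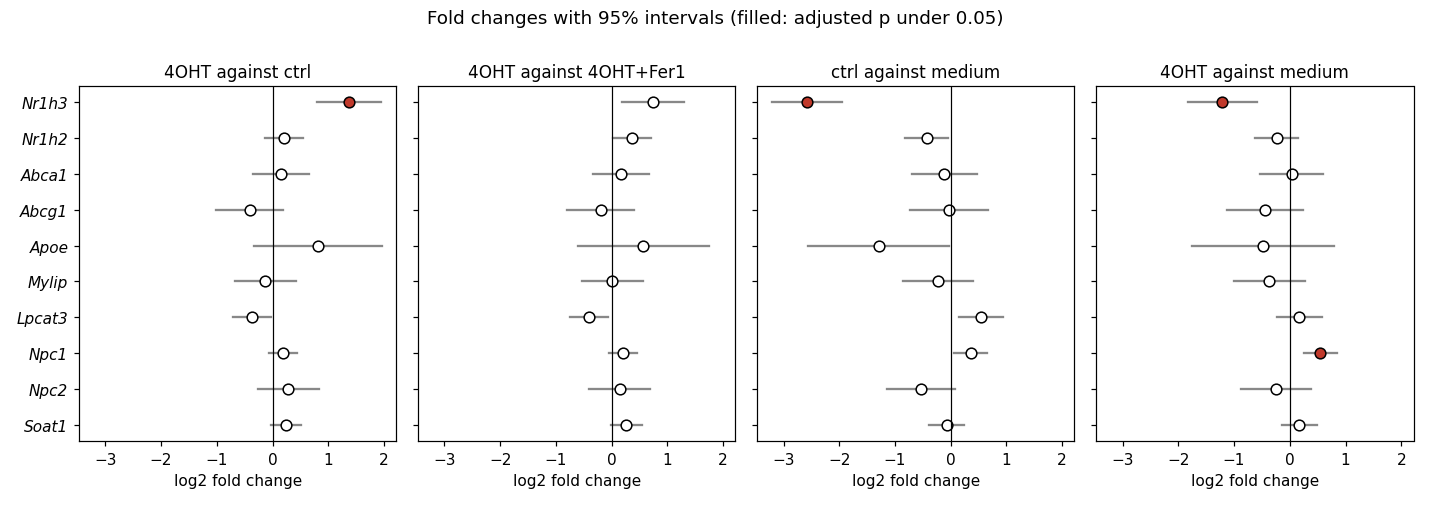
Log2 fold change of each of the 10 genes with 95% confidence intervals from edgeR. The comparisons drawn are 4OHT against ctrl, 4OHT against 4OHT+Fer1, ctrl against medium and 4OHT against medium. Nr1h3 in 4OHT against ctrl (1.37) and in ctrl against medium (-2.58) lies farthest from 0, and most other intervals include 0.

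The median log2 fold change of the 10 genes was 0.19 in 4OHT against ctrl, beside 0.01 over all tested genes, and -0.17 in ctrl against medium, beside -0.01. In 4OHT against 4OHT+Fer1, 0 of the 10 passed with edgeR and with DESeq2, beside 1.35% of all genes with edgeR and 399 genes with DESeq2. By edgeR 3 of the 10 had an unadjusted p under 0.05, beside 11.8% of all genes. In the interaction 0 of the 10 passed and 1 had an unadjusted p under 0.05, beside 0.0311% and 6.2% of all genes. In 4OHT+Fer1 against ctrl, 4OHT+Fer1 against Fer1 and Fer1 against ctrl, 0 of the 10 passed with either tool. Over all genes 0.0311%, 0.0233% and 0% passed with edgeR, and 16, 12 and 1 genes with DESeq2. By edgeR 1, 0 and 0 of the 10 had an unadjusted p under 0.05, beside 4.31%, 2.07% and 1.14% of all genes. The largest change of the 10 in Fer1 against ctrl was that of Apoe, at 0.58 (SE 0.54).

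Other genes under LXR or sterol control were read from lists. Of 10 further LXR targets of lipid transport and macrophages, 9 were tested and 0 passed in 4OHT against ctrl. There the median was 0.23, with 6 above 0 and 3 below. Cd5l, Lpl and Mertk had an unadjusted p under 0.05, beside 10.8% of all genes. DESeq2 called 0 of the 9 too. Without 4OHT+Fer1 replicate 1, 1 passed as higher, and without ctrl replicate 3, 1 passed as lower. Relative to medium, 4 of the 9 were lower and 0 higher in ctrl, where 5.58% of all genes passed as lower. They were Lpl, the lipase of triglyceride-rich lipoproteins (-1.66, SE 0.27), the small apolipoprotein Apoc1 (-2.10, SE 0.47), the phospholipid transfer protein Pltp (-0.96, SE 0.22) and Mertk, a receptor for dead cells (-0.79, SE 0.21). The count of 4 rested on both medium libraries and ctrl replicate 2, since it was 1 without any one of these 3 and 0 without all samples of replicate 1 or of replicate 2. It was 1 without the block, 2 with the fold rule, and 7, of which 3 were higher, with only ctrl and medium in the fit. Lpl was also lower in 4OHT than in medium (-1.08, SE 0.27, adjusted p = 0.0460 by edgeR), but 0 of the 9 passed there without the block, without scaling factors or in 12 of 17 leave-one-out fits, which were all but those without 4OHT replicate 3, 4OHT+Fer1 replicate 1 or 3, ctrl replicate 3 or all of replicate 3. Lpl read 1429, 1343 and 1820 CPM in ctrl, 1593, 1800 and 3663 CPM in 4OHT and 4308 and 4515 CPM in medium. Among ctrl, 4OHT and medium the group order was that of Nr1h3, and 4OHT replicate 3 was again the highest of its group. Lpl was picked for this after its values were seen, so the likeness is no result. Of the LXR partners and coregulators, 9 of 11 were tested and 0 passed by edgeR in any comparison. In ctrl against medium 3 of the 9 had an unadjusted p under 0.05, beside 24% of all genes. There 1 passed as lower with DESeq2 and 3 with only the groups compared. As lower, 1 also passed without 4OHT+Fer1 replicate 1 or 2, and 2 without ctrl replicate 3 or all of replicate 3. With only the groups compared, 2 passed as lower in 4OHT against medium. Rxra, the retinoid receptor that pairs with LXR, was 0.41 in 4OHT against ctrl (SE 0.15, adjusted p = 0.299).

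Of the lipogenic genes that LXR shares with SREBP1, 3 of 10 were lower and 0 higher in 4OHT than in ctrl, with a median of -0.82, where 1.01% of all genes passed as lower. They were the desaturases Scd1 (-3.05, SE 0.43), Scd2 (-2.84, SE 0.21) and Fads2 (-2.45, SE 0.19). The count of 3 was 0 without the block, with only ctrl and 4OHT in the fit and without all samples of replicate 2, and 5 with DESeq2 and without a filter on low counts. Relative to medium, 8 of 10 were higher in ctrl, with a median of 1.87, where 5.28% of all genes passed as higher. The 8 were 3 without the block, 5 without medium replicate 1, and 3 and 2 without all samples of replicate 1 and of replicate 2. Between 4OHT and medium 3 of 10 were higher in 4OHT and all 10 were above 0 (median 1.00), where 1.92% of all genes passed as higher. These 3 were 0 without the block, 2 with the fold rule and 6 with only the groups compared. The 3 calls were lost without all samples of replicate 1 or of replicate 2. Srebf1, which encodes SREBP1 and is itself a known LXR target, was -0.47 in 4OHT against ctrl (SE 0.63, adjusted p = 0.872 by edgeR) and 1.38 in ctrl against medium (SE 0.77, adjusted p = 0.307), and neither passed. Between 4OHT and 4OHT+Fer1, 3 of the 10 lipogenic genes were lower and 0 higher, where 1.35% of all genes passed. Over all genes 174 passed there, against 20 without the block. The calls of this list were lost without all samples of replicate 1. In the interaction 2 of the 10 passed as lower, beside 0.0311% of all genes. Without the block 0 of all genes passed there, and in the leave-one-out fits the count for the list ran from 0 to 3. All 10 were below 0 in 4OHT+Fer1 against ctrl and against Fer1, where 0 passed. Of 17 SREBP2 targets tested, 10 were lower in 4OHT than in ctrl (median -0.90), among them Insig1 (-1.11, SE 0.15), which retains SREBP in the endoplasmic reticulum, and the synthesis enzymes Fdps (-1.25, SE 0.18), Msmo1 (-0.81, SE 0.13) and Hmgcs1 (-0.82, SE 0.14). The 10 were 0 without the block, with only ctrl and 4OHT in the fit, and without all samples of replicate 1 or of replicate 2. Without 4OHT replicate 1 or 2 they were 1 and 2, and without ctrl replicate 1, 2 or 3 they were 2, 1 and 6. Between 4OHT and 4OHT+Fer1, 1 of the 17 was lower, and the leave-one-out fits gave 0 to 2. In 4OHT+Fer1 against ctrl and against Fer1 all 17 were below 0 (medians -0.46 and -0.53), and 0 passed. In ctrl against medium 16 of 17 were higher (median 1.71), against 2 without the block, 9 without all samples of replicate 1 and 1 without those of replicate 2. In 4OHT against medium 5 were higher, against 0 without the block, without medium replicate 2 and without all samples of replicate 1 or of replicate 2. There the count was 1 without medium replicate 1, 3 without 4OHT replicate 1, 2 with the fold rule, 9 with DESeq2 and without 4OHT+Fer1 replicate 1, and 12 with only the groups compared.

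Of 13 tested genes of sterol ligand and ester handling, Stard4, a carrier of cholesterol between membranes, was lower in 4OHT than in ctrl (-0.96, SE 0.16, adjusted p = 0.0136 by edgeR) and the others did not pass. Of all genes 1.01% passed as lower there. In that comparison 0 of the 13 passed without the block, with the fold rule, with only ctrl and 4OHT in the fit, or without 4OHT replicate 1 or 2, ctrl replicate 1 or 2, or all samples of replicate 1 or of replicate 2, and 2 passed with DESeq2, without a filter, without 4OHT+Fer1 replicate 1 and without ctrl replicate 3, and 3 without all of replicate 3. In ctrl against medium Stard4 was higher (1.86, SE 0.19) and Cyp27a1, which makes the LXR ligand 27-hydroxycholesterol, was lower (-1.40, SE 0.37, adjusted p = 0.0325 by edgeR). Of all genes 5.28% passed as higher and 5.58% as lower in ctrl against medium. No gene of this list passed as lower there without the block, without scaling factors, or without 4OHT+Fer1 replicate 3, ctrl replicate 1 or 2, Fer1 replicate 3, either medium library, or all samples of replicate 1 or of replicate 2, and none passed as higher without all of replicate 2. Between 4OHT and medium 2 of the 13 passed as higher and 0 as lower, where 1.92% of all genes passed as higher. Without the block 0 of the 13 passed there, and with only the groups compared 2 passed as higher and 3 as lower. Cyp27a1 read 37.2, 25.3 and 91.2 CPM in ctrl, 98.5, 59.2 and 56.6 CPM in 4OHT and 111 and 94.0 CPM in medium.

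**Figure D4:**
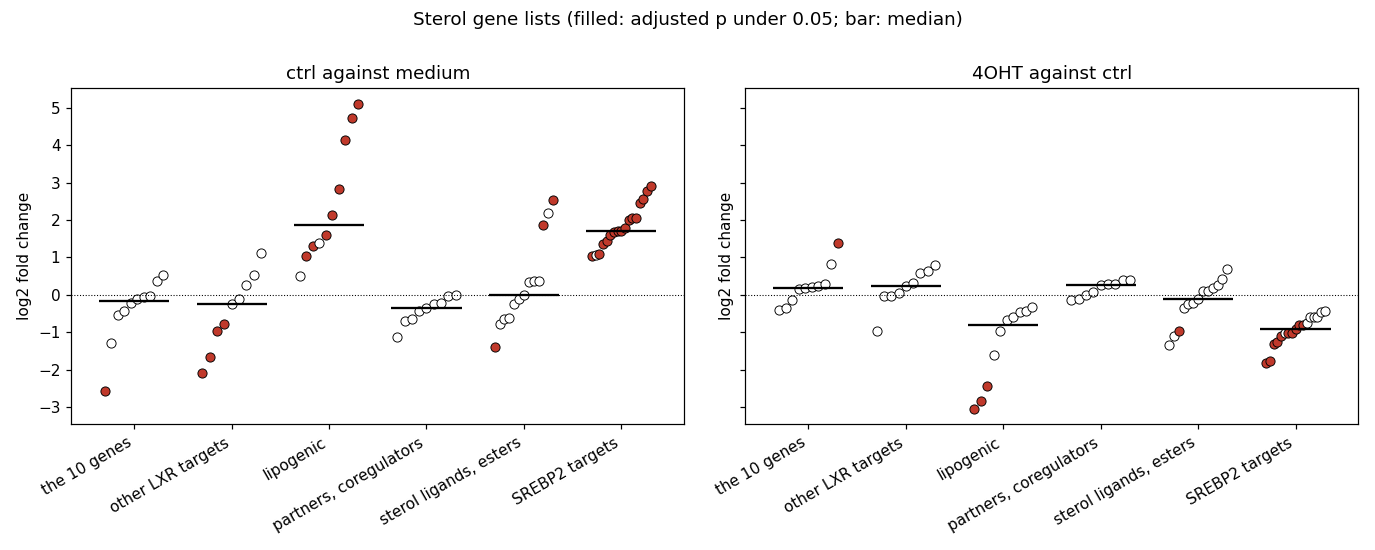
Log2 fold changes of the 10 genes and of the genes of each list in 4OHT against ctrl and ctrl against medium, each point a gene. In ctrl against medium 16 of 17 SREBP2 targets and 8 of 10 lipogenic genes that LXR shares with SREBP1 passed as higher. Nr1h3 and 4 of 9 further LXR targets passed as lower, and Abca1 and Abcg1 did not pass.

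The genes whose pattern over the 14 samples was most like that of each transporter were named by the smallest root mean square difference of centred log2 CPM. For Abca1, whose own root mean square deviation was 0.323, they were St8sia4 (0.124), Tnrc6c (0.136), Atxn1 (0.143), Zfp266 (0.146) and Ubn2 (0.149). For Abcg1, with a deviation of 0.502, they were Tasl (0.132), Apobec1 (0.143), Urb2 (0.168), Cd53 (0.176) and Pus10 (0.189). These values are descriptions over 14 samples that share replicates and libraries.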

How the data were processed

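QuantSeq libraries of pBMDM RNA, which read transcripts near their 3′ end, were sequenced as 50-bp single-end reads. The authors ran the nf-core pipeline 3.7, with STAR 2.7.10a and Salmon 1.5.2, and deposited expected counts of each gene (Salmon estimates that were not normalized). Their methods name a human genome, while the submitters' processing notes name GRCh38 and GRCm38 and the identifiers are those of mouse genes. A table of the authors' DESeq2 1.36.0 comparisons, with fold changes and p-values, and its 14 columns of per-sample values were not used.

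The deposited expected counts were rounded, since 30109 values were not whole, where the plan had spoken of counts. Genes were kept by filterByExpr (minimum count 10) and scaled by TMM (factors 0.910 to 1.06). All 14 samples entered 1 edgeR 4.0.16 quasi-likelihood fit (R 4.3.3) with the group and, because the study's methods put mouse ID in the design, the replicate number as a block. That this number is the mouse was assumed. After each gene was centred within its group, r was above 0 in all 26 pairs of samples of different groups that shared a number (median 0.247, lowest 0.00221). Its median was -0.139 over 52 other pairs, but the centring ties these to the pairs that share a number, so they are no separate contrast. The p-values measure the spread between these samples. Standard errors were computed as the absolute log2 change over the root of F, and differences within replicates used a prior count of 2. PCR duplicates cannot be told from separate molecules, so count floors cover counting error only.

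The genes named are the 10 members, list genes that passed (up to 4 per list and comparison, by adjusted p) and the 5 genes most like each transporter. One list gene that the rule names is not reported here. Non-passing list genes with values (Rxra and Srebf1, and Cd5l, Lpl and Mertk as named) and the per-sample levels of Lpl and Cyp27a1 were added after their values were seen. The members and lists were chosen with earlier results of these data known. Alternatives were DESeq2 1.42.0, no replicate block, fits of the compared groups alone, other low-count filters, RLE or no scaling, the study's fold threshold and leaving out samples. Promoter sequences are from RefSeq.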

Additional observations from a re-analysis of the deposited data

How the results depend on the processing

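Of 1920 alternative values of the 10 genes' log2 fold changes, 1737 kept their direction and their side of the threshold, 131 changed sign, 44 no longer passed and 8 newly passed. Of the members, the count that passed in 4OHT against ctrl (1) was 0 without the replicate block and with only the groups compared, and 0 to 1 when replicates were left out. In 4OHT against medium the count (2) was 1 with the study's fold threshold, 1 without a filter, 3 with only the groups compared, 0 without the block and 0 to 2 when replicates were left out. In ctrl against medium (1) it was 2 with DESeq2, 3 without scaling, 3 with only the groups compared and 0 to 2 when replicates were left out. In the other 5 comparisons it was 0 in every setting. The block changed no other call of the 10 genes. The cause of these changes was not tested. Over all genes, 192 passed in 4OHT against ctrl, 419 with DESeq2, 7 without the block and 0 with only the groups compared, and 1396 in ctrl against medium, 1746 with DESeq2, 523 without the block and 2498 with only the groups compared. Without scaling factors the median of all genes in ctrl against medium moved to 0.11. Changes of sign in values that did not pass were as follows. With DESeq2 the value was -0.0019 for Npc1 in Fer1 against ctrl. With RLE scaling the value was -0.0018 for Npc1 in Fer1 against ctrl. Without a filter the value was 0.0066 for Abcg1 in ctrl against medium, -0.0032 for Npc1 in Fer1 against ctrl. Without the block the value was 0.11 for Abca1 in ctrl against medium, -0.026 for Abca1 in interaction of 4OHT and Fer1, -0.0031 for Npc1 in Fer1 against ctrl. Without scaling factors the value was 0.0062 for Abca1 in ctrl against medium, 0.088 for Abcg1 in ctrl against medium, -0.0046 for Lpcat3 in Fer1 against ctrl, -0.021 for Npc1 in Fer1 against ctrl, 0.051 for Soat1 in ctrl against medium, -0.0084 for Soat1 in Fer1 against ctrl. With only the groups compared the value was -0.0046 for Mylip in 4OHT+Fer1 against Fer1. When replicates were left out, 41 of 80 fold changes, none of which passed, changed sign, with these lowest and highest values. In 4OHT against 4OHT+Fer1 they were -0.092 to 0.42 for Abca1, -0.41 to 0.22 for Abcg1, -0.014 to 1.19 for Apoe, -0.30 to 0.48 for Mylip, -0.11 to 0.33 for Npc2. In 4OHT against ctrl they were -0.067 to 0.47 for Abca1, -0.39 to 0.087 for Mylip, -0.035 to 0.46 for Npc2. In 4OHT against medium they were -0.28 to 0.41 for Abca1, -0.49 to 0.047 for Npc2. In 4OHT+Fer1 against Fer1 they were -0.14 to 0.30 for Abca1, -0.32 to 0.40 for Abcg1, -0.93 to 0.21 for Apoe, -0.064 to 0.11 for Lpcat3, -0.32 to 0.21 for Mylip, -0.057 to 0.052 for Npc1, -0.19 to 0.31 for Npc2, -0.10 to 0.030 for Soat1. In 4OHT+Fer1 against ctrl they were -0.30 to 0.23 for Abca1, -0.68 to 0.16 for Abcg1, -0.51 to 0.91 for Apoe, -0.062 to 0.17 for Lpcat3, -0.51 to 0.032 for Mylip, -0.043 to 0.0097 for Npc1, -0.21 to 0.43 for Npc2, -0.074 to 0.044 for Soat1. In Fer1 against ctrl they were -0.26 to 0.13 for Abca1, -0.59 to 0.087 for Abcg1, -0.039 to 1.04 for Apoe, -0.075 to 0.13 for Lpcat3, -0.061 to 0.058 for Npc1, -0.23 to 0.32 for Npc2, -0.043 to 0.23 for Nr1h2, -0.034 to 0.076 for Soat1. In ctrl against medium they were -0.42 to 0.33 for Abca1, -0.32 to 0.39 for Abcg1, -0.49 to 0.093 for Mylip, -0.10 to 0.0019 for Soat1. In interaction of 4OHT and Fer1 they were -0.32 to 0.36 for Abca1, -0.43 to 0.18 for Mylip, -0.081 to 0.65 for Npc2. Depth limits Nr1h3 most, with 33 to 193 counts per sample.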
